A study of Sus scrofa with 9 samples.

Results

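Interferon response genes are the genes that a cell switches on when type I or type III interferon, or a viral nucleic acid, is sensed. The set described here holds 49 listed genes of that response: transcription factors, sensors of nucleic acid, antiviral effectors, the ISG15 conjugation pathway, chemokines and other induced genes. A listed gene was followed where at least 1 probe set of the array carried its symbol and no other, and the brightest such probe set stood for it. That gave 27 of the 49 genes, out of 6765 genes with a probe set of a single symbol on the array.

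The cells were porcine coronary arterial endothelial cells, the lining of the artery that feeds the heart muscle, profiled under basal conditions on 9 Affymetrix porcine arrays in 3 groups of 3. Passage 1 cells were the controls, kept in culture for 1 week. Passage 4 cells came from weekly serial passaging and are described in the labels as senescent. Regenerated cells had regrown in the living animal after the endothelium was scraped off, and were then cultured with no further passage. All groups were cultured, so none shows the endothelium as it is in the vessel. The labels give no genotype, strain or age, and do not state how many animals or cultures the arrays of each group represent. A p-value here thus reflects array-to-array spread alone, part or all of which could be technical. Labelling started from 1 ug of total RNA for passage 1 and passage 4 cells and from 0.5 to 1 ug for regenerated cells, so RNA input differed with the group.

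In the textbook pathway, interferon binds its receptor at the cell surface, the JAK1 and TYK2 kinases phosphorylate STAT proteins, and a complex of STAT proteins with IRF9 enters the nucleus and turns on the response genes. Their products find viral RNA or DNA, block viral entry, translation and replication, or tag proteins with ISG15. Several of them, such as IRF7 and the RNA sensor encoded by DDX58 (RIG-I), also raise interferon production itself, and endothelial cells can both make interferon beta and respond to it.

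The values are MAS5 signals, and the 2% trimmed mean of each array, computed here from the values, is 500.1. The 40th percentile of an array lay between a signal of 37.2 and 49.2. The arrays fall into 2 kinds by the labelled spike-in transcripts, for which the log2 difference between 5′ and 3′ probe sets was -2.09 to -1.77 in passage 1 array 1 and the 3 passage 4 arrays, and -5.19 to -4.26 in passage 1 arrays 2 and 3 and the 3 regenerated arrays. This labelling kind moves with the groups, so each comparison is also given with the kind as a block. Within a kind, passage 4 is set against passage 1 array 1 alone. No kind holds both passage 4 and regenerated arrays. Their difference with the block thus rests on how passage 1 array 1 differs from passage 1 arrays 2 and 3. The endothelial markers PECAM1, CDH5, TIE1, TEK and ERG were bright in every group, while KDR and VWF lay below the filter on dim probe sets. The tight junction gene CLDN5, also an endothelial marker, had signals of 643, 732 and 512 in passage 1, 244, 222 and 538 in passage 4 and 208, 158 and 214 in regenerated cells, where it fell by 1.62 (adjusted p = 0.0134 in limma, and 0.0287 with the kind as a block); its part in the results was not tested. PTPRC, the pan-leukocyte marker, had signals of 3.80 to 25.8 and lay below the filter, as did 9 of the 10 leukocyte markers with a probe set, and the summed leukocyte signal was 268 to 372 in passage 1, 204 to 368 in passage 4 and 214 to 310 in regenerated cells. Summed smooth muscle markers were 9526 to 26839, 8278 to 24123 and 21626 to 33240 in the same order, and summed fibroblast markers 306 to 363, 470 to 683 and 864 to 1641. In regenerated cells FAP (log2 difference 3.25, adjusted p = 0.00241 in limma), LUM (3.50, 0.0396) and SMTN (0.89, 0.0422) were called higher than in passage 1. FAP passed the filter through the regenerated arrays alone, so it had to be higher there. LUM lay below the 40th percentile in the 3 passage 1 arrays and in regenerated array 2. It passed the filter through the other arrays, where it is high, so its call has a like limit. With the kind as a block LUM (0.0742) and SMTN (0.0809) lost the call. The smooth muscle marker CNN1 gained it with the block (2.27, 0.0486), from 1.49 (0.23) without it. No other smooth muscle or fibroblast marker was called against passage 1, with or without the block. The part of the smooth muscle and fibroblast signal in the results was not tested.

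The interferon response genes were lower in both passage 4 and regenerated cells than in passage 1 cells. All 27 had a negative log2 difference in each comparison, and none was called higher. In passage 4 cells 18 of the 27 fell, and in regenerated cells 20 of the 27 fell, at a Benjamini-Hochberg adjusted p under 0.05 in limma. Over all 15299 probe sets tested, 2.08% were called lower in passage 4 and 2.51% in regenerated cells. In bulk RNA, fewer cells with the response and less RNA of it per cell cannot be told apart.

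The median log2 difference over the 27 genes was -1.496 in passage 4 and -1.72 in regenerated cells, against 0.04 and -0.01 over all probe sets tested. The genes ranged from -3.28 to -0.16 in passage 4 and from -3.69 to -0.41 in regenerated cells. All 3 passage 4 arrays lay below all 3 passage 1 arrays for 22 of the 27 genes, against 9.61% of all probe sets tested. For regenerated cells this held for 23 of the 27, against 10.8%. Both comparisons use the same 3 passage 1 arrays. A total of 17 genes fell in both; IFIT2 fell in passage 4 only by this threshold, and MX1, GBP2 and USP18 in regenerated cells only, differences that were tested below by setting passage 4 against regenerated cells. IRF3, IRF9, STAT2, OAS1, EIF2AK2 and GBP1 passed the threshold in neither.

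**Figure D1:**
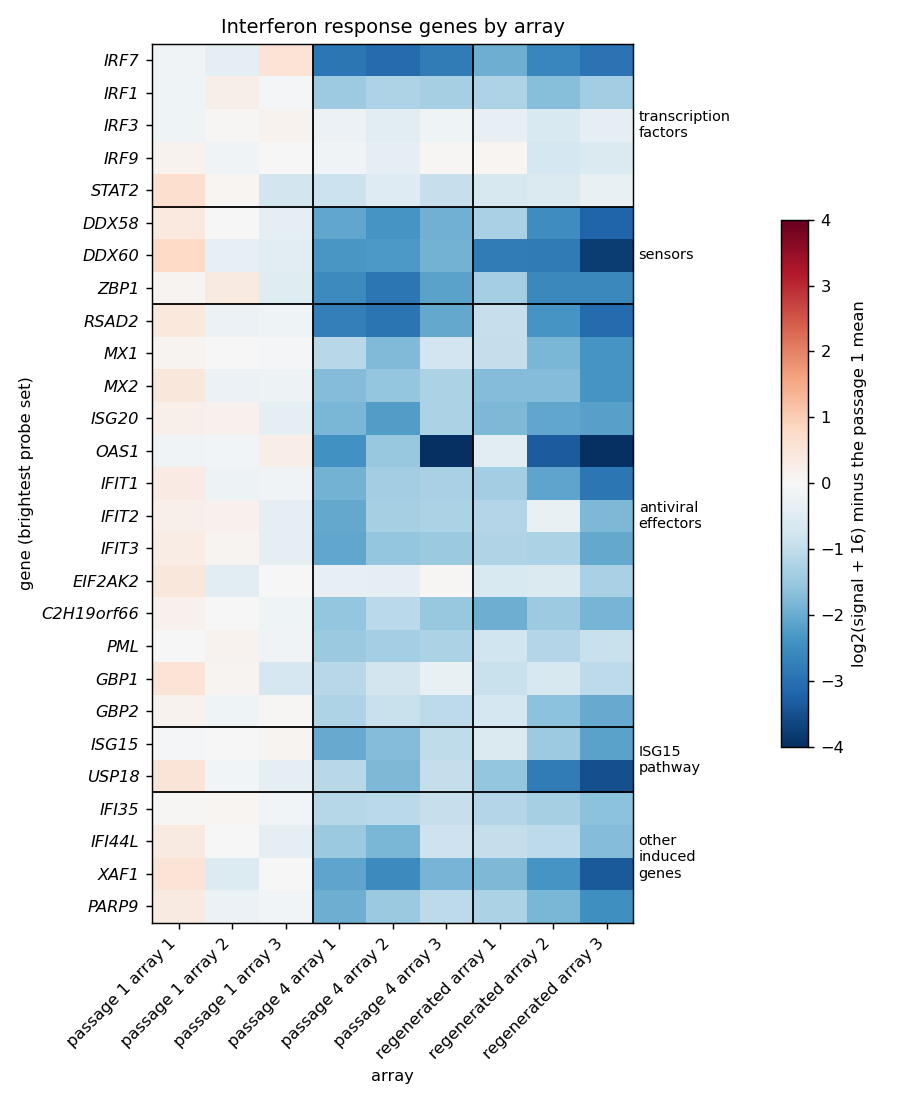
Log2 signal of each of the 27 interferon response genes in each of the 9 arrays (columns), relative to the mean of the 3 passage 1 arrays and grouped by role (rows). Nearly all genes are below 0 in the 6 passage 4 and regenerated arrays; colours stop at 4 log2 units, which OAS1 exceeds in passage 4 array 3 (-5.88) and regenerated array 3 (-7.30).

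With the labelling kind as a block, all 27 differences stayed negative in both comparisons, but the calls in passage 4 fell to 7: IRF7, DDX60, ZBP1, MX2, ISG20, IFIT3 and XAF1. Their background was then 0.516% of probe sets called lower, and the median over the 27 genes was -1.75. In regenerated cells 18 of the 27 stayed called, against 2.56%, with a median of -1.66; ISG15 (adjusted p = 0.0555 in limma) and IFI44L (0.0652) lost the call.

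Among the 5 transcription factors, 2 fell in each comparison and 3 passed in neither. IRF7, the factor that amplifies interferon production, had signals of 1049, 883 and 1732 in the passage 1 arrays, 143, 125 and 156 in passage 4 and 291, 177 and 136 in regenerated cells. No passage 4 or regenerated array came near the lowest passage 1 array. On the log2 scale, with 16 added to each signal, IRF7 fell by 2.92 in passage 4 (SE 0.31, adjusted p = 0.00116) and fell by 2.51 in regenerated cells (SE 0.31, adjusted p = 0.00177), which are 7.57-fold and 5.7-fold lower. IRF1, an early activator of interferon and antigen presentation genes, had signals of 1308, 1765 and 1423, then 536, 620 and 582, then 629, 450 and 554 in the same order of groups. It fell by 1.34 in passage 4 (SE 0.20, adjusted p = 0.0045) and fell by 1.44 in regenerated cells (adjusted p = 0.00241), and the groups did not overlap with passage 1.

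The other 3 factors were IRF3, IRF9 and STAT2. IRF3, which is activated by phosphorylation and starts interferon transcription, had signals of 1172, 1359 and 1466 in passage 1, 1122, 991 and 1186 in passage 4 and 1048, 859 and 1036 in regenerated cells. Its differences were -0.27 (adjusted p = 0.443) and -0.44 (0.167). IRF9, the DNA-binding part of the complex that carries the interferon signal to the nucleus, had signals of 672, 553 and 602, then 554, 459 and 625, then 643, 366 and 398. The IRF9 arrays of the 3 groups overlapped, with differences of -0.16 (0.775) and -0.41 (0.351). STAT2, its partner, spread widely in passage 1, with signals of 657, 431 and 242, against 220, 282 and 211 in passage 4 and 260, 270 and 334 in regenerated cells. The lowest passage 1 array lay inside the range of the others, and neither difference passed (-0.76, adjusted p = 0.202, and -0.50, adjusted p = 0.386). With labelling kind as a block the STAT2 differences were -1.42 (adjusted p = 0.0854) and -0.17 (adjusted p = 0.752), and the passage 4 difference of IRF1 was -1.16 (adjusted p = 0.0674).

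All 3 sensors with a probe set fell in both comparisons. DDX58, which recognises viral RNA with a free triphosphate end, had signals of 7140, 5399 and 4168 in passage 1, 1264, 1050 and 1422 in passage 4 and 2202, 956 and 581 in regenerated cells. It fell by 2.12 in passage 4 (SE 0.38, adjusted p = 0.011) and fell by 2.33 in regenerated cells (adjusted p = 0.00589). DDX60, a helicase that aids RNA sensing, had signals of 873, 390 and 362, then 86.9, 88.5 and 121, then 57.9, 56.9 and 20.8. Passage 1 array 1 stood far above the other passage 1 arrays, yet the lowest of the 3 was still above every other array. DDX60 fell by 2.18 in passage 4 (adjusted p = 0.00943) and fell by 3.14 in regenerated cells (adjusted p = 0.00162). The regenerated signals lay near or below the 40th percentile of the arrays, so the size of that difference depends on the 16 added to each signal. ZBP1, a sensor of Z-form nucleic acid that can trigger cell death, had signals of 1435, 1699 and 953, then 211, 167 and 288, then 508, 209 and 208. ZBP1 fell by 2.53 in passage 4 (adjusted p = 0.00395) and fell by 2.17 in regenerated cells (adjusted p = 0.00541), with no overlap.

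**Figure D2:**
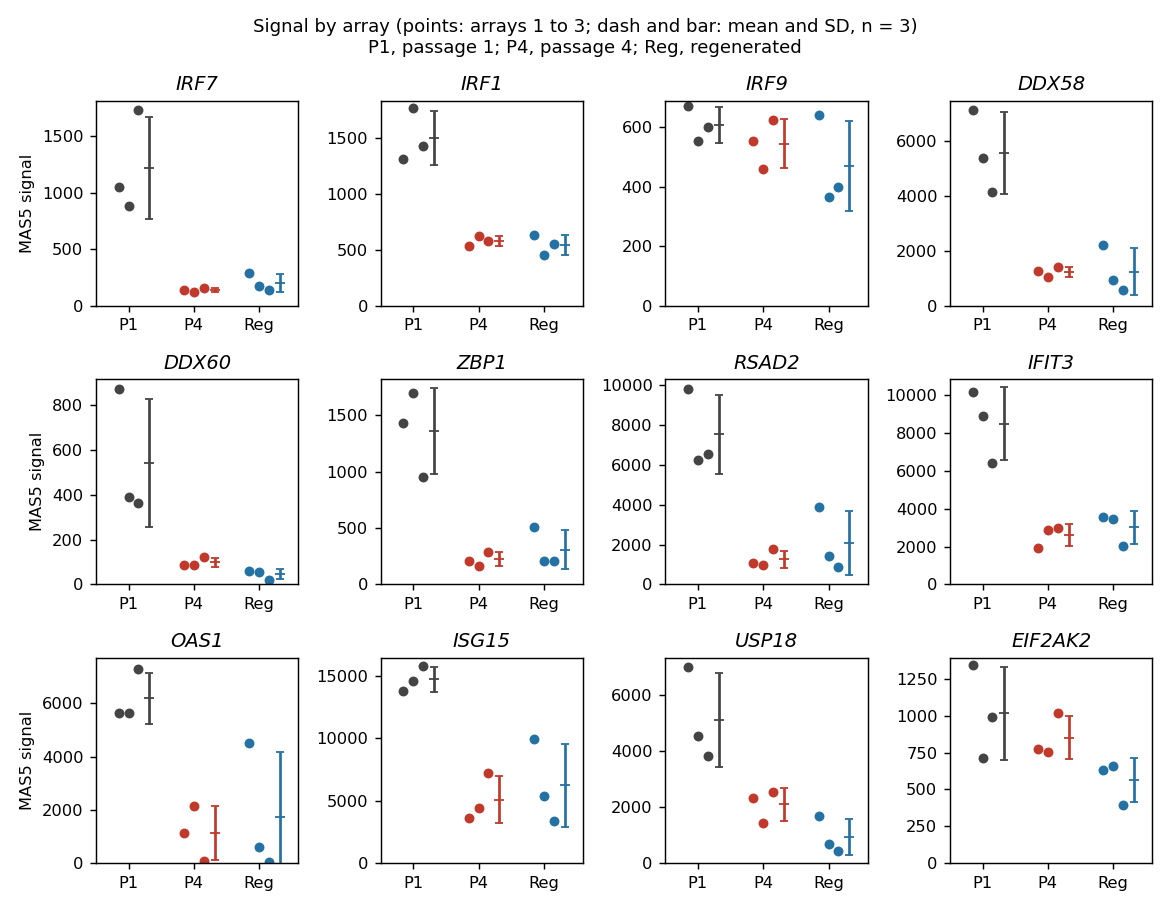
MAS5 signal (linear axis from 0) of 12 interferon response genes in each array, with points for arrays 1 to 3 from left to right in each group and bars for the mean and SD of 3 arrays. IRF7, the sensors and most effectors are separated from passage 1 in both other groups, while IRF9 and EIF2AK2 overlap it in passage 4 and OAS1 spreads widely in passage 4 and regenerated cells.

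Of the 13 antiviral effectors with a probe set, 8 fell in passage 4 and 9 in regenerated cells, and the medians were -1.52 and -1.72. RSAD2 encodes viperin, a radical enzyme that makes a chain-terminating nucleotide. Its signals were 9818, 6251 and 6550 in passage 1, 1088, 950 and 1757 in passage 4 and 3896, 1428 and 857 in regenerated cells. RSAD2 fell by 2.58 in passage 4 (SE 0.44, adjusted p = 0.00891) and fell by 2.12 in regenerated cells (adjusted p = 0.0191), with no overlap with passage 1.

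The dynamin-like GTPases MX1 and MX2, which lie side by side on the pig genome annotation, trap viral ribonucleoproteins. MX1 had signals of 11044, 10002 and 9554, then 4670, 3007 and 5946, then 5214, 2867 and 1957. All 6 later arrays lay under the passage 1 range, yet the passage 4 difference of -1.22 missed the threshold (adjusted p = 0.0504) and the regenerated difference of -1.72 passed it (0.0107). MX2 had signals of 288, 172 and 179, then 51.0, 60.0 and 77.4, then 51.3, 51.0 and 27.4. MX2 fell by 1.52 in passage 4 (adjusted p = 0.0172) and fell by 1.94 in regenerated cells (adjusted p = 0.00417), from signals that in the later groups were close to the 40th percentile of the arrays.

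The 3 measured IFIT genes, neighbours whose products bind foreign RNA caps or act as scaffolds, were all lower. IFIT1 had signals of 9908, 6829 and 7160, then 2126, 2980 and 3177, then 2958, 1821 and 1035, and fell by 1.52 in passage 4 (adjusted p = 0.022) and fell by 2.14 in regenerated cells (adjusted p = 0.00363). IFIT3 had signals of 10180, 8927 and 6400, then 1946, 2870 and 3004, then 3585, 3471 and 2015, and fell by 1.70 in passage 4 (SE 0.26, adjusted p = 0.00481) and fell by 1.51 in regenerated cells (adjusted p = 0.00702). Neither gene overlapped with passage 1 in any array. IFIT2 had signals of 2357, 2292 and 1594, then 481, 813 and 835, then 906, 1678 and 578. It fell by 1.55 in passage 4 (adjusted p = 0.0292), while regenerated array 2 lay inside the passage 1 range and the difference of -1.08 did not pass (0.0933).

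ISG20, an exonuclease of viral RNA, had signals of 1090, 1068 and 715 in passage 1, 253, 189 and 385 in passage 4 and 259, 212 and 197 in regenerated cells. ISG20 fell by 1.77 in passage 4 (adjusted p = 0.00522) and fell by 2.01 in regenerated cells (adjusted p = 0.00241). C2H19orf66, known in human as SHFL, an inhibitor of ribosomal frameshifting, had signals of 572, 499 and 447, then 162, 231 and 166, then 117, 173 and 127. Both later groups were tight and far below passage 1, with log2 differences of -1.38 (SE 0.24, adjusted p = 0.0094) and -1.76 (adjusted p = 0.00232). PML, the scaffold of nuclear bodies, had signals of 472, 518 and 426, then 159, 175 and 185, then 266, 199 and 247. PML fell by 1.37 in passage 4 (adjusted p = 0.00509) and fell by 0.95 in regenerated cells (adjusted p = 0.0242).

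The guanylate-binding proteins GBP1 and GBP2, neighbouring genes whose products coat vacuoles of intracellular pathogens, were less clear. GBP2 had signals of 309, 241 and 284, then 109, 142 and 127, then 165, 77.4 and 56.8. Its passage 4 difference was -1.05 (adjusted p = 0.0881), and in regenerated cells it fell by 1.45 (adjusted p = 0.0244). For the brightest probe set of GBP1 the 3 groups overlapped, with signals of 3488, 2603 and 1504, then 1103, 1415 and 1943, then 1272, 1543 and 1154. GBP1 differences were -0.72 (adjusted p = 0.199) and -0.86 (adjusted p = 0.111). By the second GBP1 probe set, both later groups lay wholly below passage 1. It differed by -0.89 in passage 4 (adjusted p = 0.096) and fell by 1.16 in regenerated cells (adjusted p = 0.0353). The dimmest GBP1 probe set overlapped passage 1 and passed in neither (-0.27, adjusted p = 0.755, and -0.86, adjusted p = 0.196).

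OAS1 and EIF2AK2 passed in neither comparison. OAS1 makes the 2-5A messenger that activates an RNA-degrading enzyme. It had the most negative differences of the 27 genes, -3.28 and -3.69, but also an SE of 1.41, with signals of 5619, 5635 and 7308, then 1122, 2134 and 88.9, then 4519, 596 and 23.1. Every later array lay below passage 1, with signals from close under it to the dim end of the array, and the adjusted p was 0.223 and 0.15. EIF2AK2, the kinase PKR that halts translation on double-stranded RNA, had signals of 1347, 716 and 996, then 778, 757 and 1020, then 635, 662 and 395. EIF2AK2 in passage 4 overlapped passage 1, with a difference of -0.22 (adjusted p = 0.718), and the regenerated difference was -0.83 (adjusted p = 0.0987).

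ISG15 is a ubiquitin-like protein that is attached to other proteins, and USP18 removes it and also damps the receptor. ISG15 had signals of 13807, 14600 and 15811 in passage 1, 3605, 4406 and 7198 in passage 4 and 9909, 5408 and 3327 in regenerated cells. It fell by 1.60 in passage 4 (SE 0.34, adjusted p = 0.0233) and fell by 1.38 in regenerated cells (adjusted p = 0.0371), and no array overlapped passage 1. USP18 had signals of 7003, 4537 and 3810, then 2306, 1426 and 2543, then 1672, 692 and 415. The USP18 difference in passage 4 was -1.28 (SE 0.42, adjusted p = 0.112), and in regenerated cells USP18 fell by 2.63 (adjusted p = 0.00528).

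All 4 of the other induced genes with a probe set fell in both comparisons. XAF1, a promoter of apoptosis, had signals of 2511, 1164 and 1676, then 380, 275 and 460, then 482, 317 and 152, and fell by 2.17 in passage 4 (adjusted p = 0.0107) and fell by 2.50 in regenerated cells (adjusted p = 0.00436). PARP9, a partner of an E3 ligase in DNA damage and interferon signalling, had signals of 1781, 1157 and 1261, then 343, 479 and 660, then 556, 376 and 239, and fell by 1.496 in passage 4 (adjusted p = 0.0246) and fell by 1.85 in regenerated cells (adjusted p = 0.00751). IFI35 varied little within groups, with signals of 1527, 1552 and 1377, then 661, 695 and 768, then 653, 576 and 462. It fell by 1.05 in passage 4 (SE 0.18, adjusted p = 0.00952) and fell by 1.39 in regenerated cells (adjusted p = 0.00232). IFI44L, a GTPase-like protein of uncertain role, had signals of 7706, 5966 and 4635, then 2138, 1669 and 3330, then 3105, 2904 and 1802, and fell by 1.38 in passage 4 (adjusted p = 0.0207) and fell by 1.23 in regenerated cells (adjusted p = 0.0289).

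**Figure D3:**
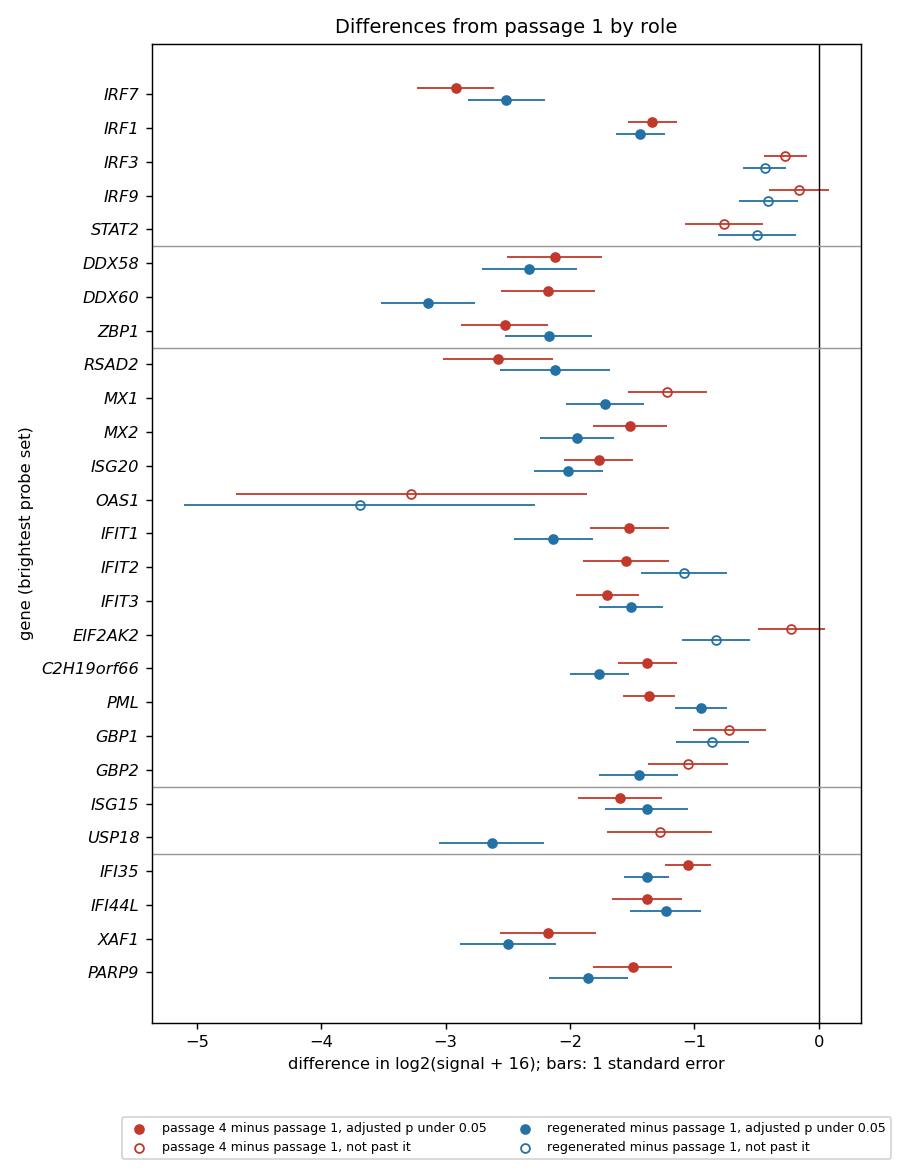
Log2 difference from passage 1 for each of the 27 interferon response genes in passage 4 and in regenerated cells, with bars of 1 SE and genes grouped by role. All points lie below 0; OAS1 has the widest bar (SE 1.41), and the genes closest to 0 are IRF9 (-0.16) and EIF2AK2 (-0.22) in passage 4 and IRF9 (-0.41) and IRF3 (-0.44) in regenerated cells.

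By role, the median differences in passage 4 and regenerated cells were -0.76 and -0.50 for the transcription factors, -2.18 and -2.33 for the sensors, -1.52 and -1.72 for the effectors, -1.44 and -2.01 for the ISG15 pathway and -1.44 and -1.62 for the other induced genes. Sensors had the most negative median and transcription factors the least negative in both comparisons. The roles hold 2 to 13 genes each, the comparisons share their passage 1 arrays, and no test of one role against another was made.

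**Figure D4:**
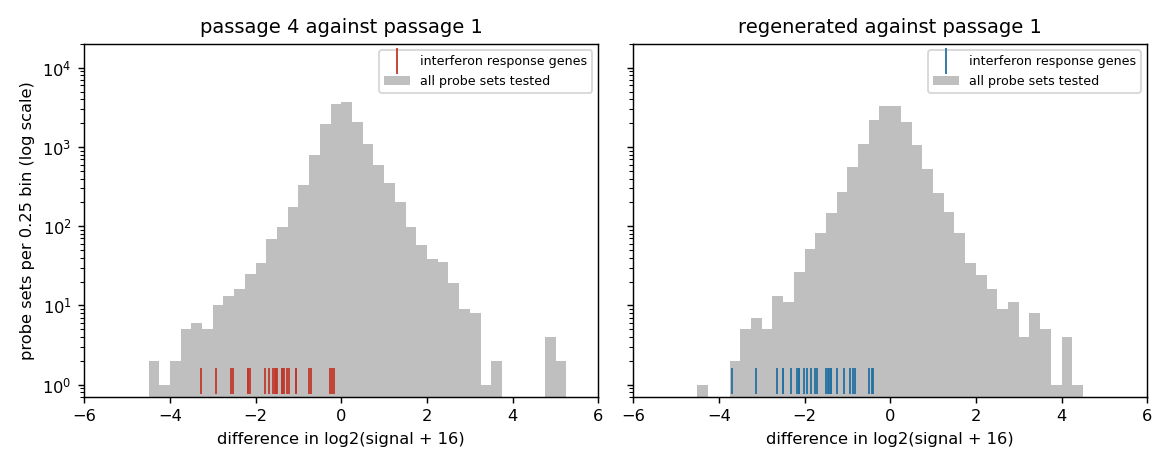
Distribution of log2 differences from passage 1 over all 15299 tested probe sets (bins of 0.25 log2, log-scaled count axis), with the 27 interferon response genes marked. The medians of all probe sets are 0.04 and -0.01, and those of the interferon response genes -1.496 and -1.72.

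Passage 4 and regenerated cells were then set against each other. None of the 27 genes passed in either direction, against 12.5% of all probe sets tested; 3 had an unadjusted p under 0.05 in limma, namely DDX60, EIF2AK2 and USP18. The median difference, passage 4 minus regenerated, was 0.24, with 18 genes positive and 9 negative, and it was -0.17, with 17 negative, with labelling kind as a block. USP18 came closest, 1.35 higher in passage 4 on the log2 scale (SE 0.42, adjusted p = 0.0568), and DDX60 was 0.97 higher (SE 0.38, adjusted p = 0.115). Neither these values nor those of IFIT2 (-0.47, SE 0.35), MX1 (0.50, SE 0.32) and GBP2 (0.40, SE 0.32) passed as differences between the groups. With labelling kind as a block USP18 was 0.60 higher, and the DDX60 difference turned to -0.22. Both values rest on how passage 1 array 1 differs from passage 1 arrays 2 and 3, as no kind holds both groups. A p that misses the threshold does not show that the groups are alike.

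Within a group, many of the genes were highest in the same array. Passage 4 array 3 was the highest of its group for 22 of the 27 genes, regenerated array 1 for 22 and passage 1 array 1 for 19, while regenerated array 3 was the lowest for 21. The median of the 27 genes relative to the passage 1 mean was -1.74, -1.52 and -1.26 in the passage 4 arrays and -1.16, -1.69 and -2.14 in the regenerated arrays. In the regenerated arrays the log2 difference between 5′ and 3′ probe sets of Gapdh was -0.02, -1.07 and -1.52, and its part in these values was not tested. Leaving out passage 4 array 1 or 2 lowered the passage 4 count from 18 to 12, and without passage 4 array 3 it was 16. Calls over all probe sets in that comparison, in either direction, were then 292, 286 and 252, in place of 733.

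Several genes had more than 1 probe set: the 27 genes had 39 in all, of which 36 were tested, and 8 genes had several. Of these, 20 probe sets fell in passage 4 and 26 in regenerated cells, and none was called higher. The second IFIT2 probe set had signals of 2880, 2826 and 1689, then 602, 654 and 540, then 712, 862 and 593, and fell in both comparisons, with differences of -1.98 (adjusted p = 0.00145) and -1.73 (adjusted p = 0.00232), where the brightest one passed only in passage 4. The second DDX58 probe set had signals of 3316, 932 and 947, then 352, 399 and 504, then 196, 145 and 91.3. It fell by 1.75 in passage 4 (adjusted p = 0.0428) and fell by 3.23 in regenerated cells (adjusted p = 0.00232), and it was 1.48 higher in passage 4 than in regenerated cells (adjusted p = 0.0459), where the brightest DDX58 probe set differed by 0.20; with labelling kind as a block that difference turned to -0.32 (adjusted p = 0.749). Other further probe sets did not pass in passage 4. The other 2 of IFIT1 differed by -1.44 (adjusted p = 0.0512) and -0.99 (adjusted p = 0.168), IFI44L's second by -1.15 (adjusted p = 0.14), PML's second by -1.56 (adjusted p = 0.11) and the dimmest of IFIT2 by 0.09 (adjusted p = 0.961). With the next brightest probe set in place of the brightest, 13 genes were called lower in passage 4 in place of 18, and 19 in regenerated cells in place of 20. The 19 include GBP1 and PML by their second probe sets. That of PML was above the 40th percentile in the 3 passage 1 arrays alone and passed the filter through that group. It thus had to be higher there, and its call, also among the 26, is not a result. In that setting 1 gene, DDX58, was called higher in passage 4 than in regenerated cells.

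For RSAD2 the array carries further control probe sets along the transcript, which were left out of the fit and are given as values with no test. The one nearest the 3′ end had signals of 1832, 902 and 889 in passage 1, 97.8, 119 and 193 in passage 4 and 406, 186 and 61.4 in regenerated cells, differences of -2.97 and -2.62. The middle one differed by -2.40 and -1.85 and the 5′ one by -0.99 and -1.29. RSAD2 was lower at all 3 positions. With labelling kind, itself a 5′ to 3′ measure, as a block, the 5′ difference was -1.96 in passage 4 and -0.81 in regenerated cells, the middle one -3.17 and -1.46 and the 3′ one -3.65 and -2.28.

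The other genes of the interferon pathway mostly did not pass. Of 52 listed ligands, receptors and kinases, adaptors and negative regulators, 27 had a probe set and 20 were tested by their brightest one. IRF8, a factor better known from myeloid cells, fell by 1.70 in passage 4 (adjusted p = 0.0194), and IFNAR2, a receptor chain, fell by 0.73 in regenerated cells (adjusted p = 0.0488). The signals of IRF8 were 162, 168 and 109 in passage 1, 31.7, 54.4 and 19.7 in passage 4 and 46.9, 76.8 and 32.9 in regenerated cells. Passage 4 arrays 1 and 3 lay below their 40th percentile, so the size of the IRF8 difference depends on the 16 added to each signal. With labelling kind as a block both IRF8 and IFNAR2 lost the call. By the brightest probe set no other pathway gene passed against passage 1 except IFNB1, interferon beta itself, which is given as values only. Its signals were 81.7, 199 and 122 in passage 1, 21.8, 7.28 and 11.2 in passage 4 and 26.4, 16.1 and 3.16 in regenerated cells. IFNB1 was above the 40th percentile in the 3 passage 1 arrays alone and passed the filter through that group, so it had to be higher there, and its level in the other groups is at the dim end of the arrays.

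Among the receptors and kinases, JAK1 (-0.13 and 0.16), IFNGR1 (-0.36 and -0.44) and the brightest probe set of TYK2 (0.14 and 0.02) did not pass in passage 4 or regenerated cells. The next brightest of the 4 TYK2 probe sets did not pass either (0.42, adjusted p = 0.342, and -0.32, adjusted p = 0.452). The third brightest TYK2 probe set had signals of 149, 2.24 and 3.05 in passage 1, 282, 220 and 215 in passage 4 and 1.26, 13.8 and 1.57 in regenerated cells. It was high in passage 1 array 1 and the 3 passage 4 arrays, the arrays of one labelling kind, and low in the other 5, so it passed the filter through those arrays. Against passage 1 it was 2.72 higher in passage 4 (adjusted p = 0.0441), and 0.62 higher with labelling kind as a block (adjusted p = 0.588).

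Between passage 4 and regenerated cells 3 of the 20 pathway genes passed by their brightest probe set, which is a share near the 12.5% of all probe sets called in that comparison. They were IFNAR1, the other receptor chain (1.11 higher in passage 4, adjusted p = 0.00907), MYD88, an adaptor of Toll-like receptors (2.11 higher, adjusted p = 0.00647), and JAK2 (log2 difference -1.04, adjusted p = 0.0443). With labelling kind as a block none of the 3 passed.

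**Figure D5:**
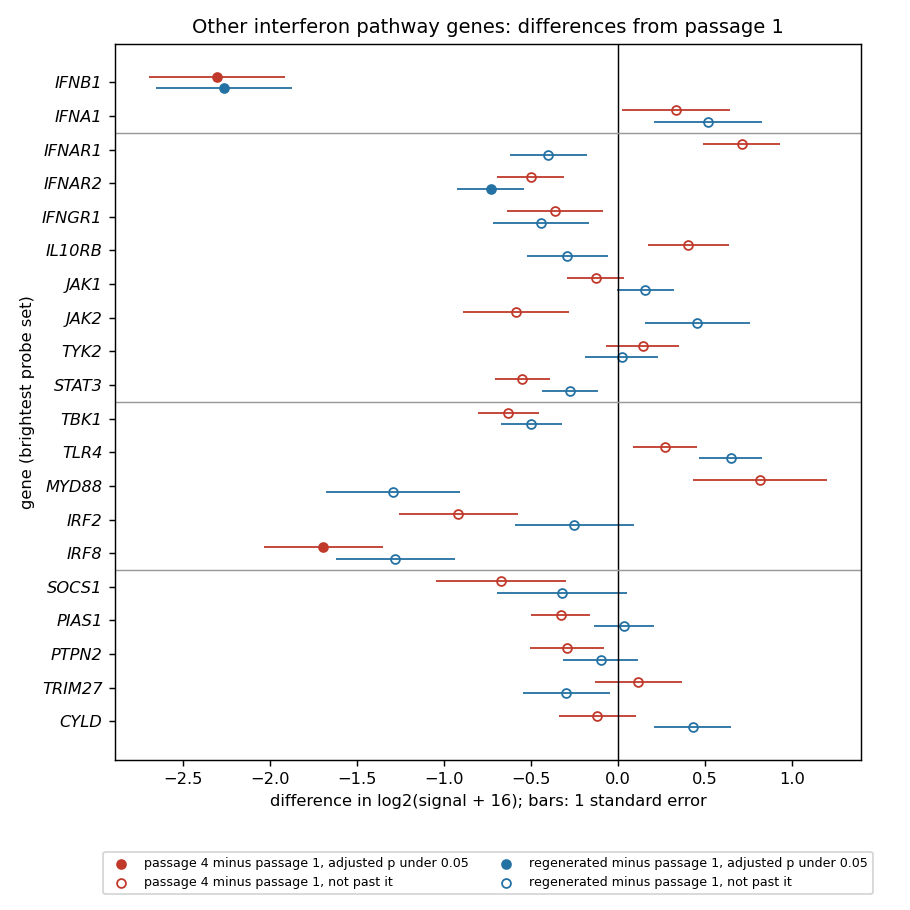
Log2 difference from passage 1, with bars of 1 SE, for the 20 tested genes of the interferon pathway outside the response set, in passage 4 and regenerated cells. IFNB1 lies lowest, but passed the filter on dim probe sets only through its passage 1 arrays and is dim in the other groups, so its place is not a result.

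The remaining 22 listed genes had no probe set of their symbol alone and are not analysed here. They are the sensors IFIH1 and DHX58, the effectors OAS2, OASL, IFIT5, BST2, IFITM1, IFITM3, SAMD9, ADAR and TRIM21, the ISG15 enzymes UBA7, UBE2L6, HERC5 and HERC6, the chemokines CXCL10 and CXCL11, and IFI6, IFI44, CMPK2, PARP14 and LGALS3BP. The 2 probe sets that list IFITM3 also list another symbol.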

How the data were processed

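The deposited values are MAS5 signal intensities per probe set, named as MAS5 per the submitters' processing notes; for version and settings: not given in the sources used here. Each array's 2% trimmed mean is 500.1. From the 24123 probe sets, 124 controls were left out. The table pairs 10099 probe sets with 1 symbol, 198 with several and 13826 with none; all 27 genes matched RefSeq (Sscrofa11.1) by Entrez identifier.

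Values were taken as log2(signal + 16), and a probe set was tested where at least 3 of 9 arrays lay above their own 40th percentile (15299 probe sets; all 27 genes passed). limma 3.58.1 in R 4.3.3 fitted all 9 arrays with lmFit and eBayes with an intensity trend, and two-sided p-values were adjusted by the Benjamini-Hochberg method within each comparison, across every probe set tested. Fold changes are on the log2(signal + 16) scale and understate changes of dim genes. The number of arrays, 3 a group, limits the precision.

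The genes and lists were chosen with earlier results of these data known, and so was the labelling kind. Any listed gene may be named; array values are given for genes past the threshold and for all transcription factors and sensors, and those of OAS1, EIF2AK2 and GBP1, outside that rule, were added after their values were seen. The procedure was tested on simulated data. Same-numbered arrays did not deviate together (correlations -0.14 to 0.19, 1 of 9 over 0.1), so the numbers were not taken as pairs. In all, 12 other settings and the omission of each of 9 arrays were tried.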

Additional observations from a re-analysis of the deposited data

Results flagged for a closer look

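Of the probe sets of the interferon response and pathway genes, 6 differed between passage 4 and regenerated cells in limma's direct test of that difference. Over the whole array 1912 probe sets, 12.5% of those tested, did so. No labelling kind holds both groups, so the values with the block rest on passage 1 array 1 against passage 1 arrays 2 and 3. The dimmer DDX58 probe set was 1.48 higher in passage 4 (log2; -0.32, adjusted p = 0.749, with labelling kind as a block). IFNAR1 was 1.11 higher (0.54, adjusted p = 0.432, with the block). JAK2 differed by -1.04 (-0.47, adjusted p = 0.66, with the block). MYD88 was 2.11 higher (1.19, adjusted p = 0.341, with the block). The third brightest TYK2 probe set was 3.61 higher (0.46, adjusted p = 0.68, with the block). A further TLR4 probe set was 1.62 higher (1.62, adjusted p = 0.159, with the block), where the brightest one differed by -0.38. Groups of 3 arrays are too small for a test of single outlying arrays.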

How the results depend on the processing

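Among the 27 response genes, no gene called against passage 1 changed direction in those of the 12 other settings and 9 omissions where it was tested. The second MX2 probe set lay below the filter and was not tested. Its differences were 0.11 in passage 4 and 0.28 in regenerated cells, on signals of 2.64 to 23.0. The pathway genes and further probe sets were recomputed only with labelling kind as a block, where the dimmer DDX58 probe set turned from 1.48 to -0.32 between passage 4 and regenerated cells. With labelling kind as a block, the passage 4 count of genes called lower was 7 in place of 18, its median -1.75, and the median of passage 4 against regenerated -0.17; the block leaves passage 4 a single control array, and 150 probe sets in all were called in place of 733, and 35 in place of 1912 between passage 4 and regenerated cells. With a pseudocount of 64 the regenerated median was -1.49, as adding more to the signal shrinks differences of dim genes. Centring each array on its median gave a passage 4 median of -1.65.

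Leaving out 1 array gave passage 4 counts of 12 to 21 (12 without passage 4 array 1 or 2) and medians of -1.65 to -1.34. Regenerated counts were 15 to 21 and medians -1.83 to -1.45 (the last without regenerated array 3). Calls over all probe sets, in either direction, were 236 to 1381 in passage 4 and 277 to 1218 in regenerated cells. Between passage 4 and regenerated cells 0 genes were called lower, with medians of 0.06 to 0.35. Called higher in passage 4 were 3 genes without regenerated array 1 and 1 gene without passage 1 array 1. In these 2 settings 2363 and 2408 probe sets were called in all. Under every setting tried, 6 of the 18 passage 4 calls and 12 of the 20 regenerated calls were kept. ISG15 and IFI44L lost the regenerated call within labelling kind. With the replicate number as a block, 18 genes were called lower in passage 4 and 17 in regenerated cells, and 1 gene, USP18, higher in passage 4 than in regenerated cells; 549, 554 and 1626 probe sets in all were called, in place of 733, 840 and 1912.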
